A study of Mus with 50 samples.

Results

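This account compares the livers of animals numbered 137 to 235 (16 livers) with those of animals numbered 253 to 301 (13 livers), 29 of the 50 mouse livers measured on Affymetrix arrays. The animal number is the one in brackets in each liver's name. The break between animals 235 and 253 was chosen by ranking expression values of these same livers, so every difference given here describes the 2 stretches of numbers and carries no p-value. Livers of animals 7 to 79 (8) and 84 to 128 (13) make up the rest of the series and are given beside them as values. The labels do not say what the numbering follows, so age, cage, handling or array run that changed along it cannot be told apart from the stretches.

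Both stretches carry the same labels. All were female mice of a C57xFVB backcross with the MMTV-Neu (protooncogene) transgene and breast cancer as comorbidity, and the tissue was liver. In MMTV-Neu mice the promoter of the mouse mammary tumour virus, active mainly in mammary epithelium, drives the receptor tyrosine kinase Neu. The study chose livers from animals at the ends of a model-based ageing grade, and the labels used here do not say which end a liver came from. Age is not labelled. Each liver has its own animal number and is taken as 1 animal. The extraction text of the labels speaks of purified cells, while the tissue label says liver.

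The tissue label was checked against hepatocyte genes. Alb, the main plasma protein, averaged 13.44 log2 in animals 137 to 235 and 13.47 in 253 to 301, and Ttr, a thyroid hormone carrier, 12.88 and 12.91. Of the 5 defining hepatocyte genes, Alb, Ttr, Cps1 and Apoa1 differed by 0.03 to 0.07 between the stretches, and Hnf4a, a hepatocyte transcription factor, by -0.08. Values were log2 signals, a level of the same gene across livers, and levels of different genes cannot be compared on this scale. Array medians ran from 3.27 to 3.34. Animal 235 stood apart: its median correlation with the other livers was 0.857, against 0.944 to 0.978 for the other 28, and the main counts are given with and without it.

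Small nucleolar RNAs (snoRNAs) are short RNAs that guide chemical modification or cleavage of ribosomal RNA in the nucleolus, and most are cut from introns of other genes; Cajal body RNAs do the same for the RNAs of the spliceosome. RNase P RNA trims transfer RNA ends, and Y RNAs bind the Ro protein. RNF10 is a RING finger ubiquitin ligase, KMT2D a histone methyltransferase and PHF2 a PHD finger histone demethylase.

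The genes called lower in animals 253 to 301 coded for proteins, and most of those called higher were small noncoding RNAs. Of 22180 genes, 67 fell (0.302% of all genes) and 18 rose (0.0812%) by at least 0.5 log2, which is 1.41-fold, and by at least 1.5 SDs within stretches. All 67 genes that fell were protein coding, with Rela, Rae1, Rnf10 and Kmt2d among them. Protein-coding genes were 18961 of the 22180, so most of any set would be of that class. The differences of the 67 ran from -0.50 to -0.83 log2 with a median of -0.57. Of the 18 that rose, 10 were snoRNAs, a class with 80 of the 22180 genes. Others were Rpph1 and Rprl2 (RNase P RNAs), Rny3 (a Y RNA), Mir328 (a microRNA gene) and Rps12-ps24 (a pseudogene). Only Cd209a, ND6 and Ptcd3 of them were protein coding, and the rises ran from 0.51 to 0.86 with a median of 0.62. In these pieces of tissue, fewer cells of a type and less RNA per cell cannot be told apart. No gene reached 1 log2 together with 1.5 SDs. Differences are the mean of animals 253 to 301 minus that of 137 to 235 throughout, with a standard error from limma, and the median over all genes was 0.01.

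**Figure D1:**
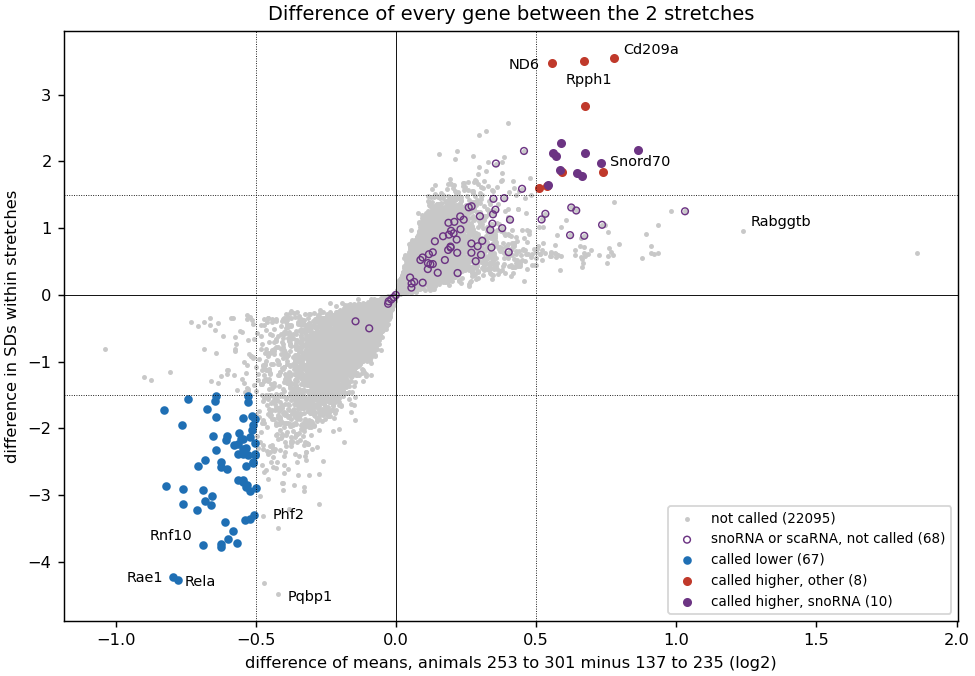
Each dot is one of 22180 genes, placed by its difference of means (animals 253 to 301 minus 137 to 235, log2, horizontal) and that difference in SDs within stretches (vertical), with dotted lines at 0.5 log2 and 1.5 SDs. The 67 called lower genes (blue) sit at lower left, with Rela and Rae1 past -4 SDs, and most called higher genes are snoRNAs (purple) at 0.54 log2 and above.

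Of the genes given as markers of the comparison, Rnf10 and Kmt2d fell and Phf2 missed the size threshold. Rnf10 ran from 8.37 (median 8.75) to 9.17 log2 in animals 137 to 235 and from 7.89 (median 8.07) to 8.46 in 253 to 301. The ranges overlapped by the narrow band between 8.37 and 8.46, and the difference was -0.69 (SE 0.07), 1.61-fold lower. Kmt2d ran from 5.87 (median 6.30) to 6.78 and from 5.46 (median 5.71) to 6.001, a difference of -0.60 (SE 0.09) that was -2.61 SDs. Phf2 ran from 6.47 (median 6.70) to 7.07 in the first stretch and from 5.99 (median 6.23) to 6.44 in the second. Every liver of animals 253 to 301 lay below every liver of 137 to 235 for Phf2, yet its difference of -0.47 (SE 0.06) missed the size threshold. They came with the choice of the comparison, so their values do not support it.

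Of the 67 genes that fell, 51 were lower in each of animals 253, 257 and 258 than in each of 231, 232 and 235, and of the 18 that rose, 11 were higher in each. The genes were called on differences that include these 6 livers, at a break chosen on the same values. Their separation here largely follows from that choice and shows no sharp step by itself. The share over all genes was not counted. Rela read 8.16, 8.46 and 8.36 in animals 231, 232 and 235, and 7.48, 7.75 and 7.13 in animals 253, 257 and 258. Rnf10 read 8.68, 8.71 and 8.73 before the break and 8.03, 8.30 and 8.09 after it. For Kmt2d the values were 6.20, 6.31 and 6.78, then 5.95, 5.71 and 6.001. All 3 genes were lower in each liver after the break than in each before it among these 6 animals. ND6 read 9.99, 10.10 and 9.86 before and 10.42, 10.39 and 10.43 after. Snord70 read 7.84, 7.61 and 7.12, then 9.12, 8.58 and 7.90, with 7.84 in animal 231 close to 7.90 in animal 258. Other called genes overlapped among these 6 livers. Snora20 read 5.10, 5.07 and 4.03 before and 5.98, 4.85 and 5.45 after, and Bcl3 read 6.82, 6.53 and 6.70, then 5.92, 6.58 and 5.68. Rny3 read 8.04, 7.53 and 8.56, then 8.97, 8.88 and 8.35, so animal 258 lay below animal 235. Rabggtb, which was not called, overlapped too, at 6.04, 6.42 and 7.17, then 7.26, 7.10 and 6.78.

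**Figure D2:**
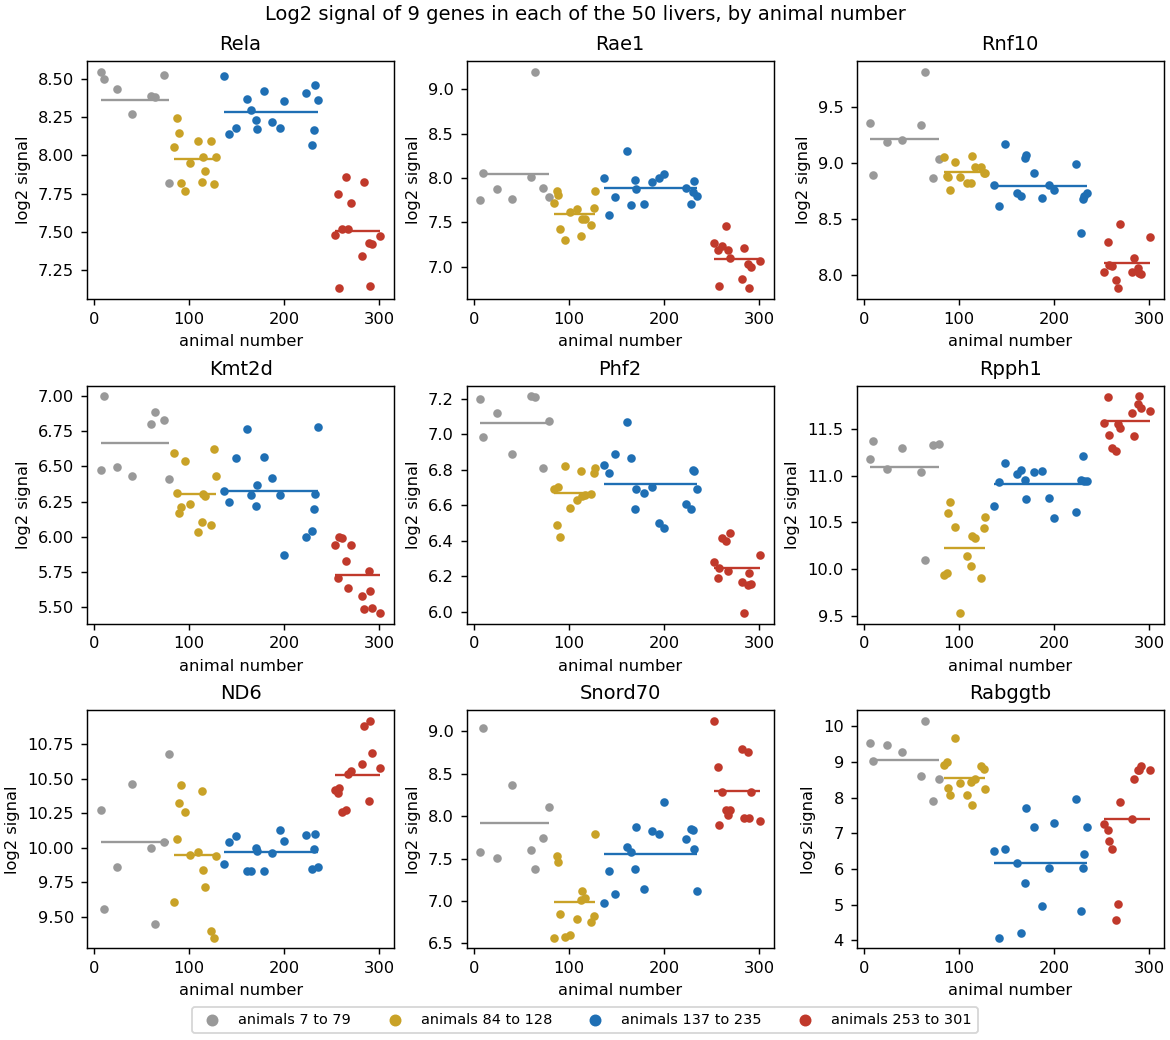
Log2 signal of 9 genes (vertical) against animal number (horizontal) in all 50 livers, coloured by stretch, with horizontal lines at the stretch means. Rela, Rae1 and Phf2 are lower in every red liver (animals 253 to 301) than in every blue one (137 to 235), Rpph1 and ND6 are higher in every red one, and Rabggtb spreads widely in both.

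Genes whose ranges did not overlap numbered 19 (0.0857% of all genes), 17 of them lower in animals 253 to 301 and 2 higher. Their gaps ran from 0.0048 to 0.21 log2. Of the 19, 11 also passed the size and spread thresholds, and the other 8 were under 0.5 log2. Rela, the p65 subunit of the inflammation regulator NF-kB, had the widest gap, 0.21, with 8.07 (median 8.26) to 8.52 in animals 137 to 235 and 7.13 (median 7.48) to 7.86 in 253 to 301. Its difference was -0.78 (SE 0.07), 1.71-fold lower and -4.28 SDs. Rae1, an mRNA export factor at the nuclear pore, ran from 7.58 (median 7.88) to 8.30 and from 6.76 (median 7.10) to 7.46, a difference of -0.79 (SE 0.07) with a gap of 0.12. Cox6a1, a subunit of cytochrome c oxidase, was at 10.98 (median 11.28) to 11.49 and 10.35 (median 10.68) to 10.80, a difference of -0.62 (SE 0.07) with a gap of 0.18.

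Other genes without overlap had smaller gaps. Uxt, a prefoldin-like chaperone, differed by -0.62 (SE 0.07) with a gap of 0.12, and Pdcd6ip, a membrane-remodelling protein of the ESCRT pathway, by -0.60 (SE 0.06) with a gap of 0.11. Atp6v0a2, a subunit of the proton pump of acidic compartments, differed by -0.58 (SE 0.06) with a gap of 0.14. Atxn2l, an RNA-binding protein, Fbrs and Pcnx3 differed by -0.76, -0.68 and -0.66. All of these fell past both thresholds. Among those under 0.5 log2, Ywhae, an adaptor that binds phosphorylated proteins, had a gap of 0.19 at a difference of -0.47. Pqbp1, a polyglutamine-binding splicing protein, had the most negative difference in SDs of any gene here named, -4.48, at -0.42 log2. Rsu1, Ergic1, Wdr48, Ube3b and Mroh1 were at -0.45, -0.49, -0.36, -0.27 and -0.47.

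Genes outside the no-overlap set also fell, some with wide spread within a stretch. Ap3d1, a subunit of the AP-3 vesicle adaptor, ran from 7.98 (median 8.19) to 8.44 and from 7.42 (median 7.65) to 8.08, a difference of -0.57 (SE 0.06). Nadk, the kinase that makes NADP from NAD, differed by -0.52, Metap1, a methionine aminopeptidase, by -0.51, Ubap2 by -0.54 and Gmcl1 by -0.61. Ccn1, a secreted matricellular protein, differed most in log2, -0.83 (SE 0.17), but animals 253 to 301 ran from 5.06 to 6.82 and overlapped the range of 5.80 to 7.46 in 137 to 235. Tmem170 differed by -0.82 (SE 0.10), Wbp2, a WW domain binding coactivator, by -0.76 (SE 0.10), and Pnpla6, a lysophospholipase, by -0.71 (SE 0.10). Bcl3, an NF-kB cofactor, differed by -0.74 (SE 0.17), only -1.56 SDs, with animals 137 to 235 at 6.14 (median 6.53) to 7.81 and 253 to 301 at 5.08 (median 5.76) to 6.77. Rela and Bcl3 are both NF-kB proteins, and no list of NF-kB genes was compared. Other genes that fell, named after their values were seen, were Lgals9 (-0.55, SE 0.09), Bmpr2, a receptor for bone morphogenetic proteins (-0.55, SE 0.07), Prmt5, an arginine methyltransferase (-0.54, SE 0.09), and Med23, a Mediator subunit (-0.54, SE 0.07).

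The B4galt enzymes, which add galactose to glycans, were set out as a list after their values were seen. B4galt5 (-0.76, SE 0.14), B4galt1 (-0.64, SE 0.13) and B4galt3 (-0.62, SE 0.09) fell, 3 of 7 measured members against 0.302% of all genes, and the list's median was -0.38. That median moved to -0.17 without animal 235, to -0.05 without animals 161 and 235 and to 0.03 with medians in place of means. The highest member stood at 0.31.

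The RNAs that rose included 2 without overlap. Rpph1, the RNA of RNase P, ran from 10.54 (median 10.95) to 11.21 in animals 137 to 235 and from 11.26 (median 11.57) to 11.85 in 253 to 301. Its difference was 0.67 (SE 0.07), 1.59-fold higher and 3.51 SDs, with a gap of 0.05 between the ranges. ND6, a complex I subunit and the one mitochondrial protein encoded on the opposite strand from the others, ran from 9.83 (median 9.99) to 10.13 and from 10.25 (median 10.53) to 10.92, a difference of 0.56 (SE 0.06) with a gap of 0.13. The other 9 mitochondrial-genome genes measured, a list made after values were seen, differed by -0.02 to 0.04, with SDs of 0.05 to 0.09. Their means in animals 137 to 235 were 12.53 to 13.24, near the highest value on any array, 13.54. Whether signals that high could show a difference was not tested. Of that list, ND6 alone passed the thresholds.

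Cd209a, a C-type lectin receptor known from dendritic cells, rose by 0.78 (SE 0.08), with 6.84 (median 7.10) to 7.43 in animals 137 to 235 against 7.33 (median 7.91) to 8.19 in 253 to 301. A second probe set of Cd209a, at a lower level (2.88 log2), differed by -0.07, so the rise rests on 1 of its 2 probe sets, and the mean of both gives 0.35. Rprl2 ran from 5.88 (median 6.41) to 6.86 and from 6.74 (median 7.04) to 7.37, a difference of 0.68 (SE 0.09). Rny3 rose by 0.74 (SE 0.14), with 7.06 (median 7.66) to 8.56 against 7.87 (median 8.53) to 8.97, whereas Rny1, the other Y RNA measured, was at -0.19 (SE 0.14), and Rn7sk, the RNA of the 7SK particle, was at 0.00. Rps12-ps24 and Mir328 rose by 0.59 (SE 0.12) and 0.51 (SE 0.11), and Ptcd3, a mitochondrial ribosome protein, by 0.54 (SE 0.12) on 1 probe set, its second probe set being at 0.10.

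The snoRNAs and Cajal body RNAs were compared as a list of 78 measured members. Of these, 10 rose and none fell, against 0.0812% and 0.302% of all genes, and 71 lay above 0, against 53.3% of all genes. Their median difference was 0.26, at a median SD of 0.29. Snora20 rose most among those called, by 0.86 (SE 0.14), with 4.03 (median 5.02) to 5.56 in animals 137 to 235 against 4.85 (median 5.92) to 6.23 in 253 to 301. Snord70 rose by 0.73 (SE 0.13), with 6.97 (median 7.62) to 8.17 against 7.90 (median 8.08) to 9.12. Snord65 rose by 0.67 (SE 0.11), with 7.44 (median 8.08) to 8.78 against 8.49 (median 8.83) to 9.07. The ranges of all 3 overlapped. Snord15a, Snora16a, Snord118, Snord16a, Snord49a, Snord11 and Snord72 rose by 0.66, 0.65, 0.59, 0.58, 0.57, 0.56 and 0.54. Snora44 had the highest difference of the list, 1.03 (SE 0.29), but not the spread, at 1.25 SDs.

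Most snoRNAs lie inside other genes, and those genes were compared with them. Of the 78, 63 lie in 49 measured genes, and 9 of the 63 snoRNAs rose, against 0.0812% of all genes. None of the 49 genes passed both thresholds in either direction. Over all genes 0.302% fell and 0.0812% rose, so no call among 49 genes is near those shares. The median difference was 0.27 for the snoRNAs and 0.01 for the genes. Above 0 were 57 of 63 snoRNAs and 25 of 49 genes, beside 53.3% of all genes. Snord70 (0.73) and Snord11 (0.56) lie in Nop58, which differed by 0.06, Snora20 (0.86) lies in Tcp1 at 0.08, Snord15a (0.66) in Rps3 at -0.03 and Snord16a (0.58) in Rpl4 at 0.04. The genes ran from -0.39 (Srcap) to 0.48 (Snhg6, at 1.75 SDs). Several snoRNAs lie in the same gene, so the 63 values are not independent. The genes were matched by position without regard to strand, and whether each snoRNA is cut from its gene was not checked. Rabggtb, a subunit of a protein prenylation enzyme and a snoRNA host, differed by 1.24 (SE 0.45), within an SD of 1.29, and ran from 4.08 (median 6.29) to 7.95 and from 4.58 (median 7.40) to 8.87, so it was not called.

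**Figure D3:**
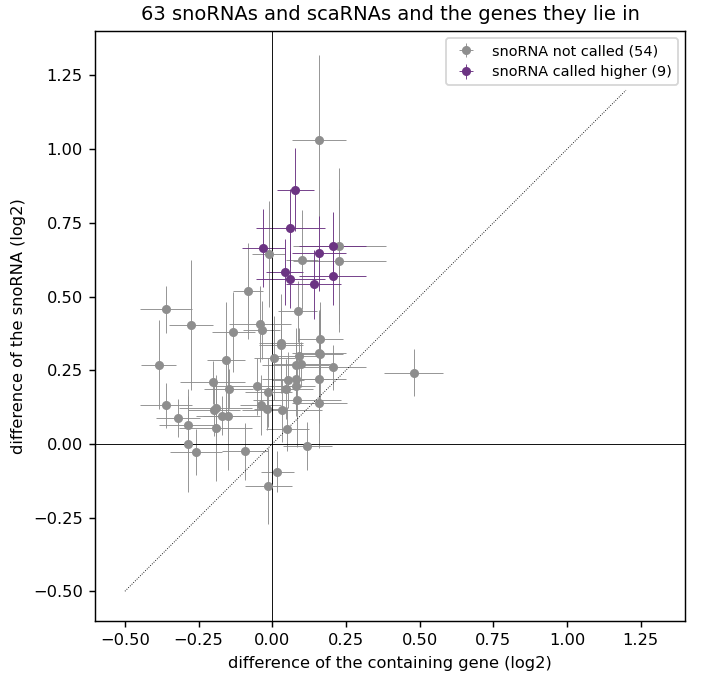
Each point is one of 63 snoRNAs or Cajal body RNAs, placed by the difference of the gene it lies in (horizontal, log2) and its own difference (vertical, log2), with bars of 1 SE and a dotted line of equality. The 9 snoRNAs called higher (purple) sit at 0.54 and above, while their genes sit between -0.03 and 0.21.

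Among histone-modifying genes, 2 fell and most others lay below 0 by small amounts. Of 36 measured histone methyltransferases and PHD finger proteins, Kmt2d and Phf1 (-0.69, SE 0.09) fell and none rose, against 0.302% and 0.0812% of all genes, 30 lay below 0 and the median was -0.17. The 29 acetylation and coactivator genes had no call, 26 below 0 and a median of -0.19, with Hdac5, a histone deacetylase, at -0.44 and Ep300, an acetyltransferase, at -0.42. Histone demethylases, with 17 measured, had no call and a median of -0.09, with Kdm6b at -0.32. Genes at or above the median level of 3.61 log2, which include 36 of the 36 methyltransferases and PHD finger proteins and 29 of the 29 acetylation genes, had a median of -0.03, and 58.2% of them were below 0. The chromatin remodelling list had Arid1a (-0.53, SE 0.07) and Hcfc1 (-0.50, SE 0.08) called among 23, again beside 0.302% of all genes, and neither was called without animal 235.

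RING finger ubiquitin ligases had 3 of 50 called, Rnf10, Rnf126 (-0.71, SE 0.08) and Rnf41 (-0.68, SE 0.10), with none higher and a median of -0.07, where 0.302% of all genes fell. Complex I had 34 measured members, none called, with 31 above 0 and a median of 0.11, and complexes II to V had 40, of which Cox6a1 fell and 34 lay above 0, with a median of 0.10. Above 0 were 53.3% of all genes and 41.8% of those at or above the median level, and 0.302% of all genes fell. Cytosolic ribosomal proteins (64), mitochondrial ribosomal proteins (70), proteasome subunits (38) and splicing factors (39) had no call and medians of 0.04, 0.05, 0.06 and 0.02.

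The study's title names oxidative stress. The antioxidant enzymes, with 15 measured, had no call and a median of 0.05, and Sod1, a superoxide dismutase, was at 0.22 (SE 0.09). NRF2 targets (18) and the p53 and senescence genes (12) had no call either, at medians of 0.05 and 0.08. Over all genes 0.302% fell and 0.0812% rose, so no call in lists this short says little about them. Lipogenesis had a median of -0.24 over 14 genes, with Srebf1, its master regulator, at -0.60 (SE 0.18) and not called. Without animal 235, Srebf1 was at -0.72 and passed both thresholds. Bile acid genes (0.15), xenobiotic metabolism (0.16), fatty acid oxidation (0.03), cholesterol synthesis (0.02), gluconeogenesis (0.04), the interferon response (0.14), acute phase proteins (0.00), the core clock (-0.09), immediate early genes (-0.08), heat shock (-0.05) and endoplasmic reticulum chaperones (-0.04), cell cycle genes (-0.01) and nuclear retained long noncoding RNAs (-0.05) had no called member, with these medians. Several list medians moved without animal 235. Bile acid genes were then at 0.05, xenobiotic metabolism at 0.04, cholesterol synthesis at -0.04 and gluconeogenesis at -0.05. Cell cycle genes were at 0.13, immediate early genes at -0.04 and endoplasmic reticulum chaperones at -0.06. Acute phase proteins were at -0.01 and NRF2 targets at 0.02. The interferon response (0.20), the p53 and senescence genes (0.12) and lipogenesis (-0.30) moved further from 0. The microRNA genes (478, Mir328 called, 0.02), olfactory (1088) and vomeronasal (285) receptors, both 0.02 with no call, lay near the median of all genes. Of 45 lists with measured members, 39 had no called member. With shares of 0.302% and 0.0812% over all genes, most short lists would have none.

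**Figure D4:**
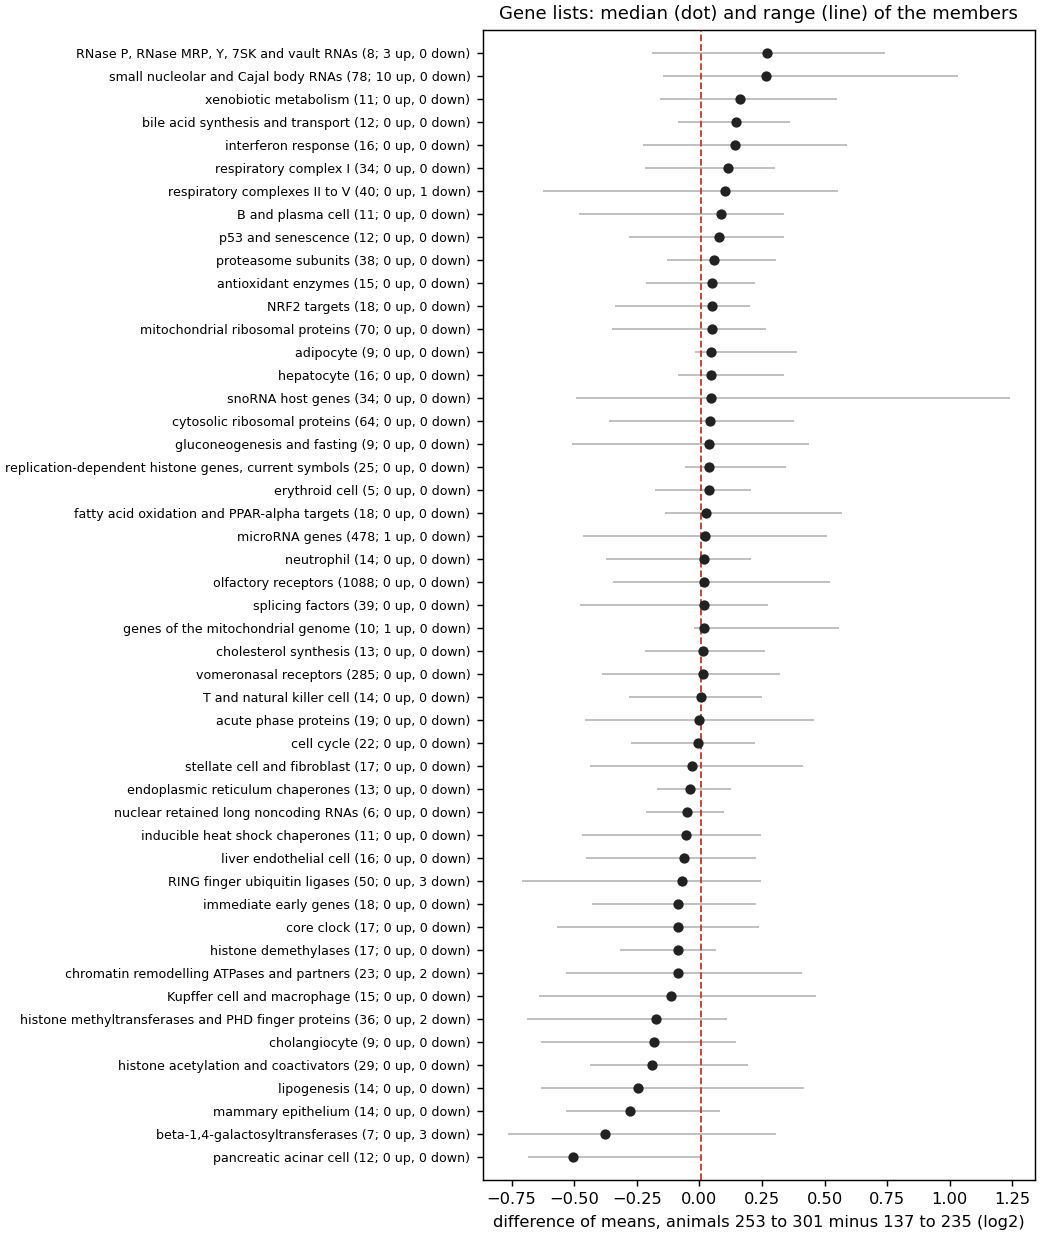
Median (dot) and range (line) of the differences of means (log2) in each list of genes, with the number measured and the numbers called up and down, and a dashed line at the median of all genes, 0.01. The snoRNA list lies at 0.26 and the acetylation list at -0.19.

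Where the called genes stood in the rest of the series differed by direction. For 63 of the 67 genes that fell, animals 253 to 301 had the lowest mean of the 4 stretches, and the medians over these genes of the stretch means were 6.59 (animals 7 to 79), 6.55 (84 to 128), 6.68 (137 to 235) and 6.08 (253 to 301). For the 18 that rose, animals 253 to 301 had the highest mean in 6, and the medians were 8.21, 7.12, 7.57 and 8.21 in that order. Averaged over the 67 genes, each liver of animals 137 to 235 lay between 6.76 and 6.99, and each of 253 to 301 between 6.02 (animal 290) and 6.50 (animal 265). Seen after the values, animals 282 to 301 averaged 6.02 to 6.21 and animals 253 to 270 averaged 6.23 to 6.50. Averaged over the 18 genes, livers ran from 7.34 to 7.88 and from 7.93 to 8.46. The 67 and 18 genes were picked for differing between these livers, so the separation of these averages follows from that choice. The same choice favours an extreme mean in animals 253 to 301 among the 4 stretches. Averaged over the 78 snoRNAs, livers of animals 137 to 235 ran from 6.95 to 7.26. Those of 253 to 301 ran from 7.01 to 7.80, so these ranges overlapped. Animals 84 to 128, at 7.02 to 7.80, covered nearly the same range as 253 to 301, while animals 7 to 79 lay at 7.83 to 8.27. The top of the range in 84 to 128 came from animals 87 (7.80) and 96 (7.70). The median liver was at 7.24 in animals 84 to 128, against 7.46 in 253 to 301 and 7.08 in 137 to 235.

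Single genes showed how the earlier stretches compare. Rela averaged 8.36 ± 0.24 (SD, n = 8) in animals 7 to 79, 7.98 ± 0.15 (n = 13) in 84 to 128, 8.28 ± 0.13 (n = 16) in 137 to 235 and 7.51 ± 0.23 (n = 13) in 253 to 301. Phf2 averaged 7.06 ± 0.15, 6.67 ± 0.12, 6.72 ± 0.16 and 6.25 ± 0.13, and Rnf10 9.21 ± 0.30, 8.92 ± 0.09, 8.80 ± 0.20 and 8.11 ± 0.16 in the same order. For all 3 genes, the mean of animals 253 to 301 was the lowest and that of 7 to 79 the highest. Cox6a1 was highest in animals 137 to 235, at 11.25 ± 0.17, against 10.93 ± 0.19 and 10.91 ± 0.13 in the stretches before and 10.62 ± 0.16 after. The genes that fell without being lowest in animals 253 to 301 were E2f4, a cell cycle transcription factor, Mfsd6, Lgals9, a galactose-binding lectin, and Tpp1, a lysosomal peptidase. Lgals9 averaged 10.18 ± 0.19, 10.75 ± 0.33, 11.24 ± 0.26 and 10.69 ± 0.25, so its peak lay in animals 137 to 235.

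Among the genes that rose, Rpph1, ND6, Snord70, Rps12-ps24, Mir328 and Ptcd3 were highest in animals 253 to 301. Rpph1 averaged 11.09 ± 0.42, 10.23 ± 0.34, 10.91 ± 0.19 and 11.58 ± 0.19, and ND6 averaged 10.04 ± 0.42, 9.94 ± 0.36, 9.97 ± 0.11 and 10.53 ± 0.21. The SDs of both genes were largest in animals 7 to 79, where animal 64 had the lowest value of each, 10.10 for Rpph1 and 9.45 for ND6. ND6 had its smallest SD in animals 137 to 235, and the Rpph1 SDs of the 2 compared stretches were alike. Rny3 was highest in animals 7 to 79, at 9.53 ± 0.63, then 7.76 ± 0.30, 7.73 ± 0.44 and 8.47 ± 0.34. Cd209a averaged 8.01 ± 0.27, 6.74 ± 0.30, 7.09 ± 0.18 and 7.87 ± 0.26, and Rprl2 7.60 ± 0.31, 6.31 ± 0.27, 6.40 ± 0.25 and 7.07 ± 0.22. For these last 3 genes, animals 253 to 301 lay between the first stretch and the 2 in the middle.

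**Figure D5:**
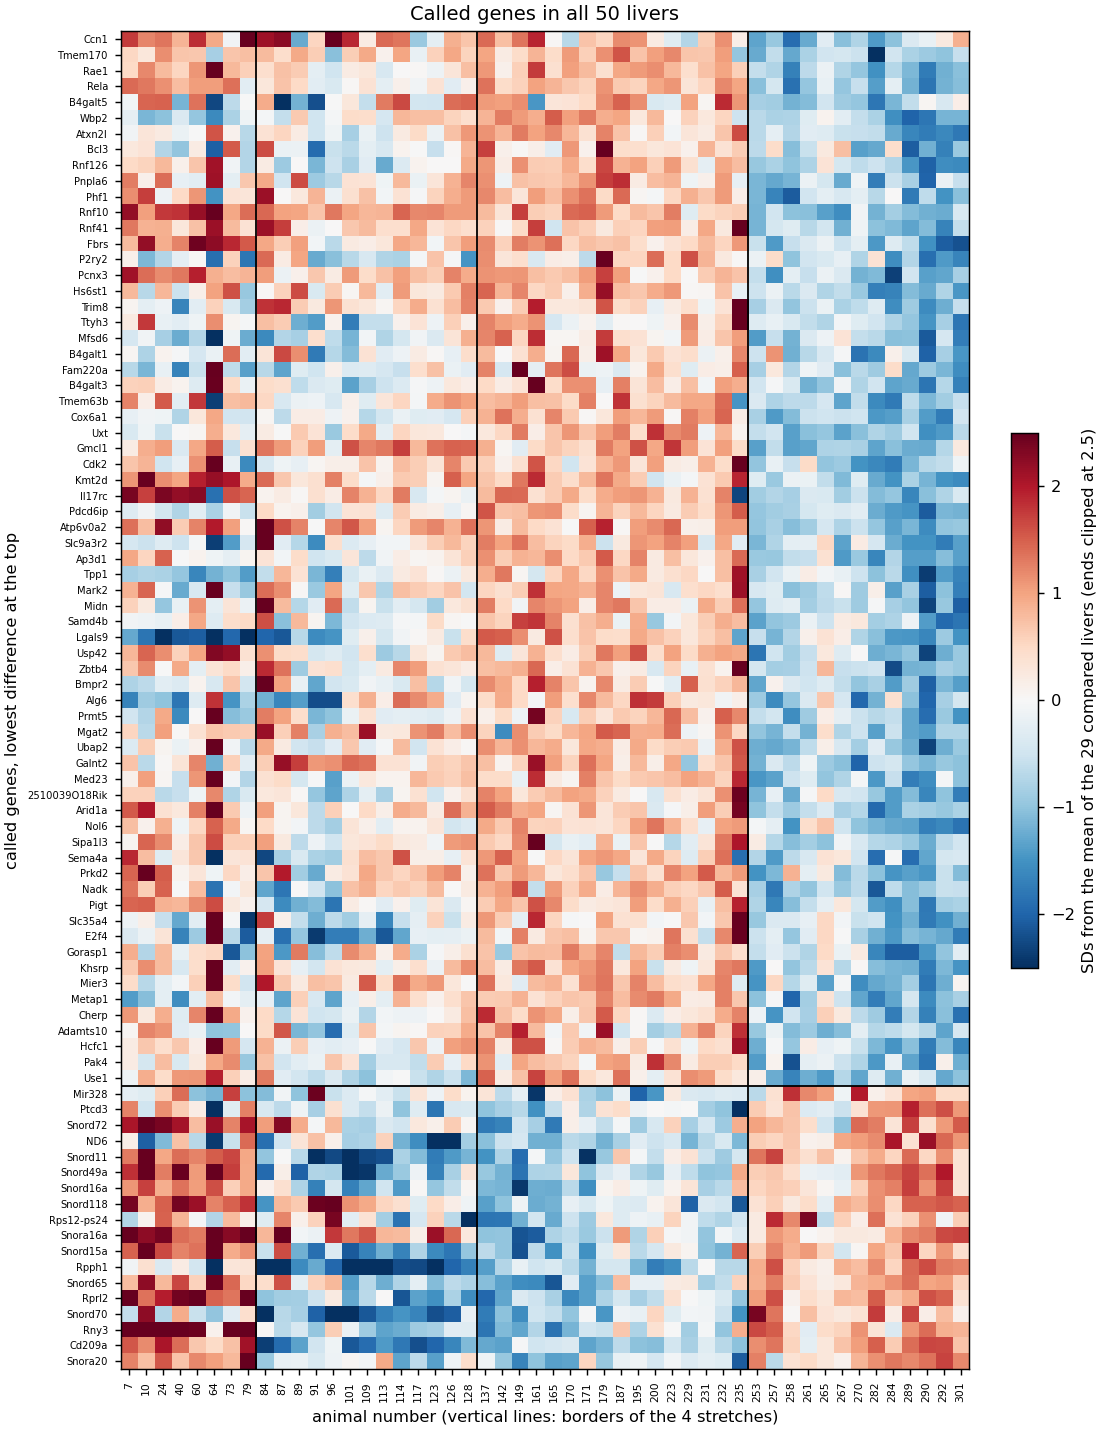
Called genes (rows, from the lowest difference at the top) in the 50 livers in order of animal number (columns), coloured by SDs from the gene's mean over the 29 compared livers, with vertical lines between the 4 stretches. The 67 genes above the horizontal line are mostly blue from animal 253 on, and the 18 below it mostly red there, as many are in animals 7 to 79.

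Without animal 235, 18 genes were higher and 73 lower, and 17 and 55 of them were also called with it. Arid1a, Hcfc1, 2510039O18Rik, Adamts10, Cherp, E2f4, Fam220a, Khsrp, Pigt, Sipa1l3, Slc35a4 and Zbtb4 were lost among the lower and Ptcd3 (0.48) among the higher, and 18 lower genes and 1 higher gene were gained. Srebf1 (-0.72), Sox9 (-0.69) and Adra1b (-0.68) were among the gains, named after their values were seen. Genes without overlap then numbered 26. The largest change in the difference of a called gene was 0.10. Animal 235 was the highest liver of its stretch in 18 of the 67 lower genes, and its 16 hepatocyte markers averaged 10.38 log2, against 11.28 for the median of its stretch, while its 15 macrophage markers averaged 10.24, against 7.43.

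No marker in the lists of liver and other cell types was called with all livers included. Over all genes 0.302% fell and 0.0812% rose, so no call in lists this short says little about cell content. Single livers were high on some lists. Liver means of the macrophage list ran from 7.05 to 10.24 in animals 137 to 235, the second highest being 8.11, and from 6.93 to 7.96 in 253 to 301, and its median difference was -0.11 with animal 235 and 0.08 without it. The pancreatic acinar list ran from 3.14 to 8.07 (animal 149) and from 3.11 to 4.73, with a median difference of -0.51 at a median SD of 1.25, and the mammary list from 3.90 to 7.80 (animal 161, second highest 4.56) and from 4.18 to 4.46. The mammary median difference was -0.28, and 0.01 without animals 161 and 235. Animal 161 also read 9.65 for Erbb2, the mouse gene of Neu, whose medians were 3.48 and 3.53. Median differences of the other lists were 0.05 (hepatocyte), 0.02 (neutrophil), 0.01 (T and natural killer cell), 0.09 (B and plasma cell), -0.06 (endothelial), -0.03 (stellate cell), -0.18 (cholangiocyte), 0.04 (erythroid, 5 of 14 measured) and 0.05 (adipocyte). Without animals 161 and 235 the cholangiocyte median was -0.05, the neutrophil one 0.13, the T and natural killer cell one 0.07, and the stellate and erythroid ones 0.00. Without animal 235, 1 cholangiocyte gene, Sox9, passed both thresholds. The part of these cells in the differences was not tested.

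At the edges of the thresholds, Use1 (-0.50, SE 0.07) and Pak4 (-0.50) were just inside the size threshold, and Ptk2b (-0.498) and Cd81 (-0.496) just outside. Sipa1l3 at -1.51 SDs was just inside the spread threshold and Zfpm1 at -1.46 SDs just outside. Calls were rarer at low levels. Below 4 log2, where 12373 genes lay, 1 gene rose and 1 fell, and between 6 and 8 log2, 8 of 3494 rose and 37 fell.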

How the data were processed

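Livers of 50 mice were measured with 1 array each. The deposited table holds log2 signals per probe set. Per the submitters' processing notes, the authors used Expression Console 1.4.1 of Affymetrix and its RMA method. RMA adjusts background, equalises arrays and summarises probes, so values are relative within a probe set and small differences at low signal are compressed. The genome build of the array annotation is not given in the sources used here, and no sequence or coordinate is printed. The WT Plus kit used 100 ng of total RNA, per the labels' protocols.

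Of 41345 probe sets, 23521 carry 1 gene in GEO's platform annotation, 1814 several and 16010 none. The 22180 genes were represented by the probe set with the highest median over the 50 livers (1082 genes have several). RNA classes and, by position, the gene containing each snoRNA came from RefSeq (GRCm38.p6), matched for 21991 genes. limma 3.58.1 (R 4.3.3, with pandas 2.3.3 in Python 3.11.15) gave differences and standard errors. A gene was called at 0.5 log2 or more and 1.5 SDs within stretches or more. No p-values were computed, because the break between the stretches was chosen on these values. The steps were tested on simulated data. The number of arrays limits the precision.

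The comparison, the members and the gene lists were chosen with earlier results of these data known, and 4 lists were added after seeing the values. Named genes are Rnf10, Kmt2d, Phf2, Rabggtb and Erbb2, the 15 called genes furthest apart in SDs and the 10 in log2 per direction, genes without overlap, and up to 4 members per list; other names were chosen after their values were seen. Of the 47 lists, 2 had no measured member (replication-dependent histones and mitochondrially encoded genes, under older symbols), and lists under current symbols took their place. The 25 histone genes under current symbols had no call, where 0.302% of all genes fell and 0.0812% rose, and a median of 0.04. Alternatives changed the livers included, the probe set, scaling, level filter, centre, spread and thresholds.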

Additional observations from a re-analysis of the deposited data

How the results depend on the processing

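The counts of 18 higher and 67 lower stayed within 1.5 times, and no gene was called in opposite directions, under 7 settings (without animal 235, without animals 161 and 235, mean of all probe sets, genes at or above the median level, arrays centred on their median, medians in place of means, SD within all 4 stretches). The 19 genes without overlap were recounted under the first 5 of these and became 31 without animals 161 and 235. The level filter could not change the counts of 18 and 67, as every called gene was at or above that level. Similar counts also held different genes. With medians 13 of the 18 and 56 of the 67 were called again, and without animals 161 and 235, 16 and 51 were. The thresholds moved the counts more: at 1 log2 the counts were 0 and 0, at 1 SD 32 genes were higher and at 2 SDs 9 were, and at 0.25 log2, chosen after seeing the data, 56 were higher and 411 lower. Of 1709 gene values under alternatives, 3 moved by over the gene's SD within stretches, all with the mean of all probe sets: Cd209a (0.35), Malat1 (0.38) and Mrpl10 (-0.17). No called gene changed sign, and 24 of the genes not called did, in 34 values. Of 294 list medians, 2 moved by over the median SD of the members, both of the B4galt list. Medians near 0 were not stable in sign: 19 of 49 lists changed sign under at least 1 setting, and 5 without animal 235 (cholesterol synthesis, gluconeogenesis, cell cycle, macrophage and stellate cell). Signals near the low end of the scale limit what differences could be seen. No paired analysis was possible because the stretches share no animal numbers.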

Other observations

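Probe sets left out of the gene counts also differed. Of the 16010 without a gene name, 49 were higher and 58 lower by the same thresholds, and 5 did not overlap. Among the 22180 genes 18 were higher (0.0812%), 67 were lower (0.302%) and 19 did not overlap (0.0857%). The 2 directions were thus closer in number in the unnamed probe sets. Higher calls were also more frequent among these than among the genes, and ranges without overlap were rarer. Of the 1814 naming several genes, 2 were higher, 2 lower and 1 did not overlap. They were not analysed further.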
